A study of Mus musculus with 15 samples.

Results

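Liver RNA of wild-type mice given diethylnitrosamine (DEN) and carbon tetrachloride (CCl4) was compared with liver RNA of untreated mice of the same strain, C3H/HeOuJ, whose Tlr4 is wild type. The treated group held 4 arrays and the untreated group 3, so the comparison used 7 of the 15 arrays of the series. Treated animals were injected with DEN at 100 mg/kg at 12 weeks of age and with CCl4 at 0.50 ml/kg at 13 and again at 15 weeks. They were killed at 15 weeks, 48 hours after the second CCl4 injection. Untreated animals were of the same age as treated ones, and all 7 samples were labelled as male. A description shared by all samples, untreated ones included, speaks instead of younger mice and of a liver resection, which no other label mentions. No vehicle injection is named for the untreated group, so the parts played by DEN, by CCl4 and by the injections themselves cannot be told apart. Each sample was hybridised to 1 whole-genome Affymetrix mouse array. The remaining arrays came from a C3H/HeJ group with mutant Tlr4 (P712H) and from a C3H/HeOuJ group that drank ampicillin, neomycin, metronidazole and vancomycin for 2 weeks from the age of 10 weeks. Both of these groups were given DEN and CCl4. They entered the estimate of the spread between arrays and are given beside a few genes. The genes described are those with a probe set of a single gene symbol that reached a log2 value of 4 on at least 3 of the 15 arrays, whatever the group. This filter kept 9483 of 18194 genes, each represented by its probe set with the highest mean.

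DEN and CCl4 do little harm until cytochromes P450 of the pericentral hepatocytes convert them. The product of DEN alkylates DNA, and the product of CCl4 is a radical that damages membranes and kills the hepatocytes that make it. Surviving hepatocytes then leave quiescence and divide, while macrophages clear the dead cells and stellate cells, the vitamin A storing cells along the sinusoids, turn into matrix-producing myofibroblasts. Division is driven by successive waves of transcription, an early one through E2F factors at the start of DNA synthesis and a later one, before mitosis, through complexes built on the MuvB core.

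All values below are log2 values, in which a step of 1 is a 2-fold change, and values under 4 were treated as close to background. A difference is the treated minus the untreated mean on that scale and is given with its standard error. The p-value beside it comes from limma, with the Benjamini-Hochberg adjustment over all 9483 genes, and a gene is said to have risen or fallen where it was under 0.05. Where arrays of the lower group read under 4, they were set to 4 for the fold, which is then a lower bound. The labels do not say whether samples of a group came from separate animals, so the p-values measure the spread between these samples, and the number of arrays limits their precision. In whole liver, fewer cells of a type and less RNA per cell cannot be told apart.

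More genes rose than fell, and the rises were the larger. Of the 9483 genes, 5938 passed the threshold (62.6%), of which 3408 rose (35.9% of all) and 2530 fell (26.7%). At least a 2-fold difference was reached by 1731 genes that rose (18.3%) and 933 that fell (9.84%), and at least a 4-fold difference by 725 (7.65%) and 223 (2.35%). Differences of 32-fold or more were measured for 108 genes that rose and 10 that fell. For 6296 genes (66.4%), every treated array lay on one side of every untreated array. The median difference over all kept genes was 0.10. These shares and this median are the background for every count of gene group members below.

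The balance between rises and falls depended on how arrays were scaled to each other and on the filter. Of the genes called, 57.4% rose with the values as deposited, 42.4% rose after each array was centred on its median, and 49.0% rose after quantile normalization. Centring lowered every difference by about 0.22, which left the median at -0.122, and quantile normalization left it at -0.03. Small differences near 0 are therefore relative to the scaling. Where a group of genes changed sign with the scaling, this is said beside its counts. Without the filter, 3945 of 18194 genes rose and 3818 fell. Of the genes called in that fit 50.8% rose, and the median difference was -0.062.

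Arrays within a group correlated between 0.981 and 0.993 over the kept genes, and untreated with treated arrays between 0.851 and 0.877. The share of probe sets at or above 4 was 34.64% to 34.94% on the untreated and 36.14% to 36.69% on the treated arrays. Genes that were near background on all 3 untreated arrays numbered 803, and 531 of them were at 4 or above on all 4 treated arrays. Genes near background on all 4 treated arrays numbered 242, and 127 of them were at 4 or above on all 3 untreated arrays. The filter shaped the 803 and the 242, because arrays of any group could keep a gene and most arrays came from treated mice. Both counts also hold the 54 genes under 4 on all 7 arrays, so their sizes cannot be compared as rises and falls. Genes of the 531 and of the 127 pass the filter on either group alone, and of these patterns the fall to background was the rarer. Among the 7850 genes at 4 or above on all 7 arrays, 2442 rose and 2244 fell, and their median difference was 0.03. The filter had little room at its edge. Speg entered with a third-highest value of 4.001 and Pdgfd stayed out with one of 3.998.

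**Figure D1:**
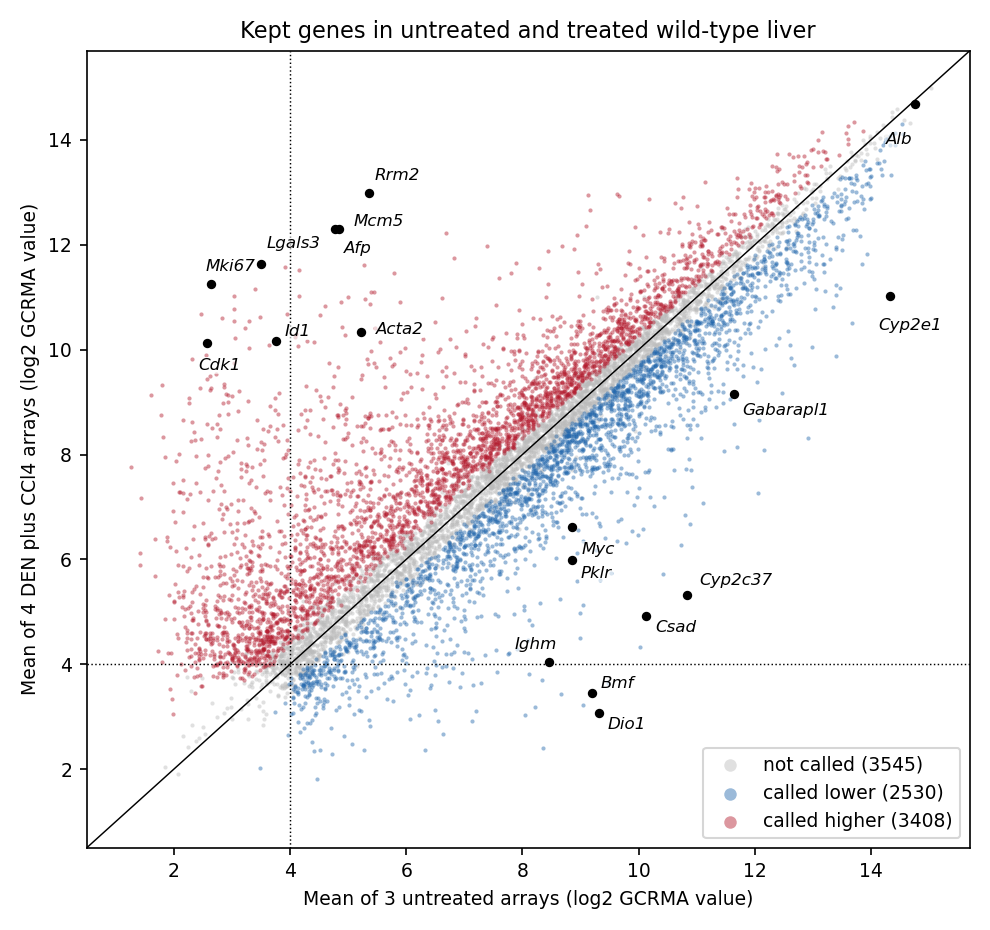
Mean log2 value of each of the 9483 kept genes on the 3 untreated arrays (horizontal) and on the 4 treated arrays (vertical). Red points are the 3408 genes that rose, blue points the 2530 that fell and grey points those not called. The solid line marks equal means and the dotted lines the value of 4 treated as background. Named genes are black. The red cloud rises along the left edge, where genes start near background, while Alb lies on the line.

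The tissue label was checked against cell type markers before the gene groups were read. Hepatocyte markers kept high levels on all arrays, and 7 of 18 fell and 0 rose (median difference -0.22). After centring 13 fell and 0 rose (median -0.44), and after quantile normalization 6 fell and 1 rose (median -0.15). Albumin (Alb) read 14.65, 14.78 and 14.84 on the untreated and 14.81, 14.54, 14.67 and 14.69 on the treated arrays, with a difference of -0.08 ± 0.1 (adjusted p = 0.488). Its groups overlapped. The hepatocyte lipid carrier Fabp1 read 15.1, 15.01 and 15.0 and 14.77, 15.1, 15.12 and 14.97 (difference -0.04 ± 0.1, adjusted p = 0.715, 1.03-fold), again with overlap. After centring both were called lower, by -0.30 and -0.27 (adjusted p = 0.0107 and 0.0333). The deepest fall of the list was that of Cyp2e1, the pericentral P450 that activates CCl4, from 14.23, 14.36 and 14.4 to 11.11, 11.91, 10.27 and 10.8 (difference -3.31 ± 0.35, adjusted p = 1.52e-06, 9.89-fold). Smaller falls included the asialoglycoprotein receptor subunit Asgr1 (-0.82 ± 0.15, adjusted p = 0.000221), the gluconeogenic enzyme Pck1 (-0.62 ± 0.15, adjusted p = 0.00224) and apolipoprotein Apoa2 (-0.45 ± 0.09, adjusted p = 0.000726). The summed linear value of the hepatocyte list was 301723 to 315686 on the untreated and 257565 to 281093 on the treated arrays.

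Markers of several other cell types moved in the same comparison. All 9 kept markers of monocytes and recruited macrophages rose. The sum of the list was 359 to 529 on the untreated and 3251 to 4410 on the treated arrays. Cd9 and Lyz2, with treated means of 10.48 and 10.53, gave most of this sum on every array. Of the 9, 7 were under 4 on all 3 untreated arrays, so only arrays of treated mice could bring them through the filter. Such members favour rises in the counts of this and the other lists. The chemokine receptor Ccr2, which brings monocytes out of the marrow, was under background at 0.88, 1.55 and 1.84 and read 5.78, 5.54, 6.14 and 6.11 after treatment, at least 3.71-fold higher (4.47 ± 0.24, adjusted p = 2.11e-09). Cd14, a co-receptor for bacterial lipopolysaccharide, went from 2.63, 2.61 and 2.49 to 8.15, 7.9, 7.64 and 7.45 (difference 5.21 ± 0.26, adjusted p = 9.91e-10, at least 13.8-fold). Every treated array was above every untreated one for both. Itgam, Trem2 and Ms4a7 stayed under 4 on all 7 arrays.

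Stellate cell and myofibroblast markers rose in 16 of 16 kept genes, with a sum of 2369 to 5347 before and 16766 to 19499 after. Smooth muscle actin (Acta2), the usual sign of an activated stellate cell, read 5.27, 5.41 and 4.97 on the untreated and 10.91, 10.03, 10.2 and 10.21 on the treated arrays (difference 5.12 ± 0.23, adjusted p = 3.26e-10, 34.8-fold). The collagen chain gene Col1a2 read 5.44, 7.3 and 7.12 and 10.92, 10.9, 11.2 and 10.88 (difference 4.36 ± 0.4, adjusted p = 4.14e-07, 20.5-fold). Untreated replicate 1 stood below the other untreated arrays for Col1a2, and without it the rise was 13.6-fold. This array was also the lowest untreated one for 14 of 14 endothelial, 12 of 16 stellate and 7 of 10 Kupffer cell markers, by a median of -0.51, -0.70 and -0.36 from the group mean. With it left out, 15 of 16 stellate markers rose, with a median difference of 1.94, against 2.20 with all arrays.

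Resident Kupffer cell markers did not move together. Of 10 kept, 5 rose and 2, C6 and Slc40a1, fell. The summed level overlapped between groups, at 4825 to 6224 on the untreated and 4718 to 6352 on the treated arrays. C6 and Slc40a1 gave most of the untreated sum, so its overlap does not show that the other markers were unchanged. The scavenger receptor Marco went from 3.46, 3.15 and 3.09 to 8.52, 7.31, 7.42 and 7.46 (difference 4.44 ± 0.38, adjusted p = 1.73e-07, at least 12.8-fold), with treated replicate 1 above the rest. The complement receptor Vsig4 read 6.01, 7.83 and 8.55 and 9.87, 9.27, 9.52 and 8.78 (difference 1.89 ± 0.48, adjusted p = 0.00349, 3.71-fold). Without untreated replicate 1, its lowest array, the difference for Vsig4 was 1.17 (adjusted p = 0.0191). The complement component C6 fell from 10.02, 10.28 and 9.91 to 6.21, 6.46, 7.26 and 6.41 (difference -3.49 ± 0.48, adjusted p = 1.92e-05, 11.2-fold), and the iron exporter Slc40a1 fell as well (-0.61 ± 0.11, adjusted p = 0.000277). Timd4 and Folr2, which define long-lived resident cells, were under 4 on all 7 arrays.

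Lymphocytes were hardly visible. Of the 15 T and NK cell markers on the array 0 were kept, and their sum, 65 to 72 before and 66 to 72 after, overlapped. Among B and plasma cell genes, 7 of 11 were under 4 on all 7 arrays, and of 3 kept 2 rose and 1 fell. The B cell adaptor Bank1 rose from 2.58, 3.02 and 2.9 to 6.22, 4.21, 4.09 and 3.86 (1.76 ± 0.4, adjusted p = 0.00139), well above the rest on treated replicate 1. With values under 4 set to 4, the difference for Bank1 was 0.63 and no longer called (adjusted p = 0.166). Syndecan 1 (Sdc1), a plasma cell marker that hepatocytes also make, rose from 12.01, 11.9 and 11.87 to 12.49, 12.66, 12.43 and 12.79 (0.66 ± 0.17, adjusted p = 0.00329), and with it the summed level went from 4205 to 4556 before to 5598 to 7155 after. The immunoglobulin heavy chain gene Ighm fell from 8.46, 8.27 and 8.63 to 4.83, 3.55, 4.13 and 3.71 (difference -4.4 ± 0.27, adjusted p = 6.47e-09, at least 18.6-fold). No treated array of Ighm reached the untreated ones, although related immunoglobulin sequences may bind the same probes. Neutrophils contributed 2 kept markers of 12, S100a8 and S100a9, both under 4 on all 3 untreated arrays. S100a8 went from 2.72, 2.53 and 2.45 to 6.52, 5.11, 5.8 and 5.93 (difference 3.28 ± 0.33, adjusted p = 1.02e-06, at least 3.58-fold), and 10 of the neutrophil markers, Elane and Mpo among them, were under 4 on all 7 arrays. Of 6 kept cholangiocyte markers 4 rose, with sums of 187 to 342 and 719 to 1547, but Krt7 and Cftr were under 4 on all arrays. On all 3 untreated arrays, 5 of the 6 were under 4. Of the 4 that rose, Anxa3 and Prom1 reached treated means of 9.15 and 6.78, while Epcam and Krt19 stayed near background at 4.22 and 3.84. The pancreas list had 1 kept gene, the elastase Cela1, which fell from 10.97, 10.94 and 11.11 to 8.46, 8.4, 8.81 and 8.6 (difference -2.44 ± 0.22, adjusted p = 2.95e-07, 5.42-fold), and its digestive enzymes Cpa1, Cpb1, Prss2 and Ctrb1 were under 4.

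Endothelial markers rose in 7 of 14 kept genes and fell in 0 (median 0.77), with sums of 1880 to 3240 before and 3780 to 4360 after. Without untreated replicate 1, 6 of 14 rose, with a median of 0.49. The hyaluronan receptor Lyve1 went from 3.55, 5.04 and 5.52 to 7.45, 7.75, 7.59 and 7.62 (difference 2.89 ± 0.38, adjusted p = 1.29e-05, at least 6.71-fold), and the scavenger receptor Stab1 from 6.39, 6.87 and 6.56 to 8.09, 7.67, 8.01 and 7.68 (difference 1.26 ± 0.18, adjusted p = 2.25e-05, 2.39-fold). Pecam1, Emcn, Cd34 and Gata4 were under 4 on all 7 arrays. Of 7 erythroid markers 3 were kept, and Hba-a1, Slc4a1, Epb42 and Rhag were under 4 on all 7 arrays. Alas2, the first enzyme of erythroid haem synthesis, fell from 9.46, 9.5 and 9.02 to 6.52, 6.38, 6.96 and 6.66 (difference -2.69 ± 0.24, adjusted p = 2.97e-07, 6.47-fold). The erythroid factor Klf1 fell from 5.56, 5.21 and 5.33 to 2.54, 2.99, 2.94 and 3.3 (difference -2.42 ± 0.19, adjusted p = 7.65e-08, at least 2.57-fold). The transferrin receptor Tfrc, which dividing cells in general carry, rose from 8.42, 9.17 and 9.26 to 11.56, 11.48, 11.36 and 11.55 (difference 2.54 ± 0.28, adjusted p = 2.15e-06, 5.8-fold), and with it the erythroid sum, from 1115 to 1364 before to 2777 to 3148 after. Of the other lists, 1 of 2 kept dendritic cell, 1 of 1 mast cell, 3 of 3 mesothelial, 1 of 1 platelet and 1 of 2 adipocyte markers rose and 0 fell. The kept mast cell and platelet markers were likewise under 4 on all 3 untreated arrays. So were 1 of 2 dendritic cell, 2 of 3 mesothelial and 1 of 2 adipocyte markers. Krt19 is counted among both the cholangiocyte and the mesothelial markers. How far these shifts of marker genes enter the changes described below was not tested.

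**Figure D2:**
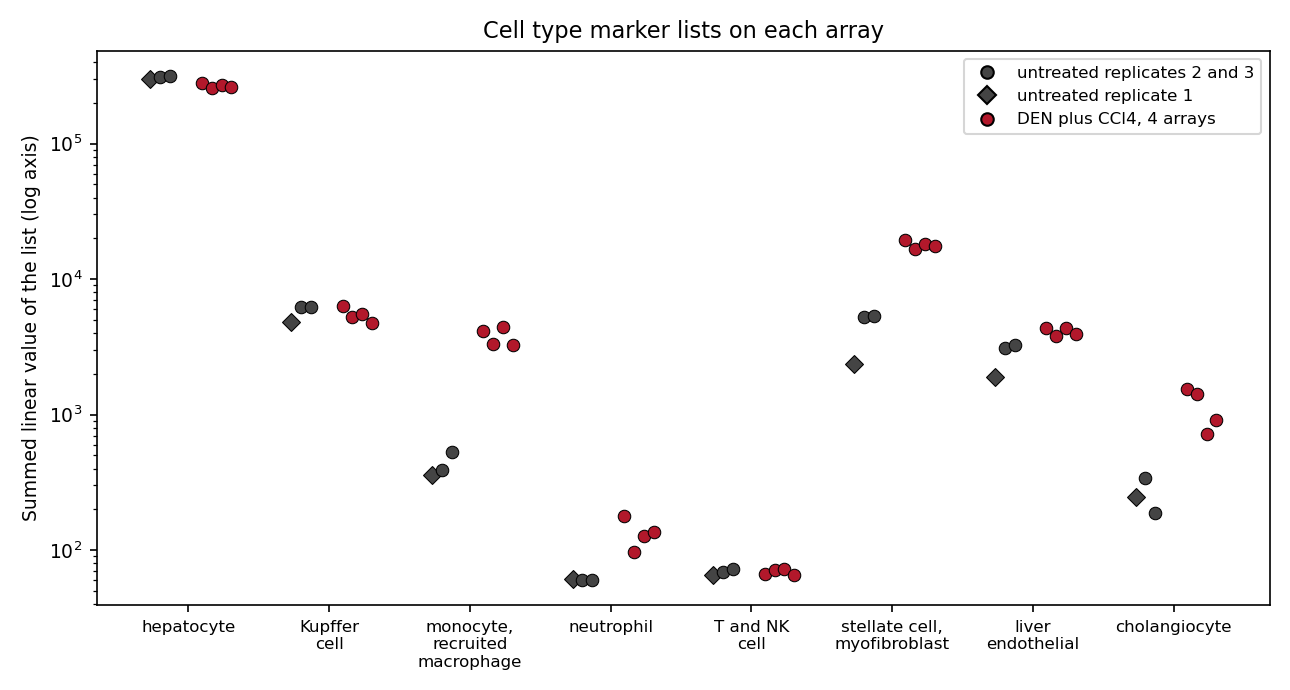
Summed linear value of 8 cell type marker lists on each of the 3 untreated arrays (dark) and 4 treated arrays (red), on a log axis. The diamond is untreated replicate 1. Monocyte and stellate cell lists separate by group, at 359 to 529 against 3251 to 4410 and at 2369 to 5347 against 16766 to 19499. Most of the monocyte sum comes from Cd9 and Lyz2. The Kupffer cell and T and NK cell lists overlap. On the untreated arrays most of the Kupffer cell sum comes from Slc40a1 and C6, which fell.

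The highest and lowest 12 differences were picked among called genes at 4 or above on all 7 arrays whose groups did not overlap. Separation of the groups was thus a condition of the choice. The 12 with the highest differences were mostly genes of DNA replication and chromosome division, beside a fetal liver protein, an annexin and a protease inhibitor. Rrm2, the ribonucleotide reductase subunit that limits the supply of deoxynucleotides, read 4.87, 5.66 and 5.54 on the untreated and 13.17, 12.92, 12.9 and 12.97 on the treated arrays (difference 7.64 ± 0.26, adjusted p = 3.96e-11, 199-fold). The 4 treated values lay within a narrow band far above all untreated ones. The helicase subunit Mcm5 went from 4.62, 5.49 and 4.4 to 12.41, 12.31, 12.25 and 12.28 (difference 7.48 ± 0.24, adjusted p = 2.86e-11, 178-fold). Mcm6 went from 5.69, 5.34 and 4.83 to 11.37, 11.76, 11.65 and 11.67 (difference 6.33 ± 0.24, adjusted p = 7.24e-11, 80.3-fold). The treated arrays of both helicase subunits lay at least 5 log2 units above the highest untreated array. Alpha-fetoprotein (Afp), a serum protein of fetal liver, read 5.6, 4.36 and 4.38 and 12.35, 13.17, 11.47 and 12.2, with treated replicate 2 highest and replicate 3 lowest. The secreted protease inhibitor Slpi rose from 4.64, 4.31 and 4.9 to 11.58, 10.31, 11.24 and 10.19 (difference 6.21 ± 0.39, adjusted p = 8.42e-09, 74.2-fold), with treated replicates 1 and 3 above 2 and 4. The other genes of the 12 were the annexin Anxa2, the signalling adaptor Shcbp1, the kinetochore subunit Spc25, the reductase subunit Rrm1, the replication licensing factor Cdt1, the condensin subunit Smc2 and the primase subunit Prim1, all at least 51.2-fold higher.

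Among genes under 4 on all 3 untreated arrays, the 10 with the highest treated means were again mostly genes of chromosome duplication and division. The proliferation marker Mki67 read 2.59, 2.66 and 2.67 on the untreated and 11.16, 10.84, 11.72 and 11.29 on the treated arrays (difference 8.61 ± 0.44, adjusted p = 1.28e-09, at least 152-fold). Uhrf1, which keeps DNA methylation through replication, went from 2.91, 3.36 and 2.83 to 10.92, 11.28, 10.9 and 11.04 (difference 8.0 ± 0.23, adjusted p = 2.34e-11, at least 131-fold). Every treated array of both was above 10. The topoisomerase Top2a was at least 102-fold higher, the chromosomal passenger subunits Cdca8 and Birc5 at least 98.5-fold and at least 93.1-fold, and the mitotic kinase gene Pbk at least 93.7-fold. Ly6d, a membrane protein known from lymphoid progenitors, went from 3.31, 3.17 and 3.21 to 11.11, 10.78, 9.73 and 10.08 (difference 7.2 ± 0.58, adjusted p = 9.95e-08, at least 85.9-fold), lowest on treated replicate 3. Hells, Ube2c and Cdkn1a completed the 10 and are described with their groups.

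Promoters of the genes that rose were compared with those of other genes, because genes of the cell cycle share short promoter motifs. RefSeq promoter sequences of assembly GRCm38.p6, covering 250 bases before and 50 after each annotated start, were matched for 7763 of the 9483 kept genes. Searched on either strand were the cell cycle homology region (CHR, TTTGAA), the CCAAT box, an E2F motif in the forms TTTCCCGC, TTTCGCGC, TTTGCCGC and TTTGGCGC, and the hepatocyte motifs HNF1 (GTTAATNAT) and HNF4 (CAAAGTCCA). The upstream 250 bases of 4 of the genes with large rises are printed because they carry these motifs in different combinations. Each is read 5′ to 3′ on the strand of its gene, ending at the base before the start, with matches in capitals. Cdk1 is shown from chr10:69352913-69353162 (minus strand), Cdc20 from chr4:118437344-118437593 (minus), Mcm5 from chr8:75109259-75109508 (plus) and Afp from chr5:90490464-90490713 (plus).
Cdk1: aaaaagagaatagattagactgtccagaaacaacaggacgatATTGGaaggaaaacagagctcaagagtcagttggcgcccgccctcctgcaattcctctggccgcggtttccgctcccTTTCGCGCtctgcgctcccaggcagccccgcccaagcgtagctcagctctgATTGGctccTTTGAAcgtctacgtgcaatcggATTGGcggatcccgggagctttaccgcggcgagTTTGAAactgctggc
Cdc20: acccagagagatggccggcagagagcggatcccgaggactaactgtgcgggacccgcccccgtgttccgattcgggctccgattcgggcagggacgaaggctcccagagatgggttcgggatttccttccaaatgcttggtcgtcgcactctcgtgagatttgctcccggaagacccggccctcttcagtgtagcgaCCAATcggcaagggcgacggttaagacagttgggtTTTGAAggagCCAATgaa
Mcm5: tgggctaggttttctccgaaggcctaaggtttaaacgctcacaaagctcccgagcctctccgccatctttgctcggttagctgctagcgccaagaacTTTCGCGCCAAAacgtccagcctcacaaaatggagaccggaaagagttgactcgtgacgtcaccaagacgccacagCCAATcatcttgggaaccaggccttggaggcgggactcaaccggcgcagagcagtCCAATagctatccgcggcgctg
Afp: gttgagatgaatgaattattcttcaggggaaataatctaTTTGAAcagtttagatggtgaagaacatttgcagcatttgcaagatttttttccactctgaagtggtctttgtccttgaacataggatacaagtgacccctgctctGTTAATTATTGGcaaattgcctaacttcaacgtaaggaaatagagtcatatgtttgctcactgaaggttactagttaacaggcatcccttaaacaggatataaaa
In Cdk1, the kinase that starts mitosis, CHR matches began 71 and 15 bases before the start, with CCAAT matches at 208, 80 and 48 and an E2F match at 131. In Cdc20, an activator of the anaphase-promoting complex, a CHR match at 18 stood between CCAAT matches at 53 and 8. In Mcm5 no CHR was found in the 250 bases, and E2F matches on both strands overlapped at 153 and 149, with CCAAT matches at 77 and 22. In Afp an HNF1 match at 105 overlapped a CCAAT match at 98, and a CHR match lay at 211.

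Over the groups of genes, CHR, CCAAT and E2F matches became more frequent with the size of the rise. A CHR match was in 14.5% of the promoters of kept genes, in 24.0% of the 575 with at least a 4-fold rise and in 36.0% of the 164 with at least a 16-fold rise. CHR and CCAAT stood together in 5.9%, 14.8% and 27.4% of these sets, and an E2F match in 4.9%, 11.8% and 15.2%. Genes not called had values of 13.1%, 5.4% and 4.3%, and over all 27025 genes with a promoter the shares were 20.2%, 8.0% and 2.6%. Promoters of the 175 genes with at least a 4-fold fall had a CHR in 19.4%, both CHR and CCAAT in 4.6% and E2F in 1.7%. HNF4 matches were few, in 4 of these 175 genes (2.3%), namely Aspdh, Csrp3, Cyp8b1 and Nat8, and in 0.6% of kept genes. HNF1 matches were in 0.6% of the 175 and 0.7% of kept genes, and among genes with at least a 4-fold rise in Afp, Igfbp1 and Trim30a. These shares are descriptions of letters in a window and were given no test.

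The regulators of the early wave rose in most cases, while pocket proteins, which hold E2F in check, went both ways. Of 21 kept E2F, RB, DREAM and MYC family regulators, 14 rose and 2, Rbl2 and Myc, fell, with a median difference of 1.23. After centring, and also after quantile normalization, 11 rose and 4 fell. Rbl1, the pocket protein of cycling cells, went from 3.18, 2.77 and 2.85 to 8.87, 8.9, 9.21 and 9.06 (difference 6.08 ± 0.25, adjusted p = 1.52e-10, at least 32.2-fold). Rbl2, the pocket protein of the quiescent DREAM complex, fell from 7.76, 8.06 and 7.69 to 6.16, 6.48, 6.97 and 6.82 (difference -1.23 ± 0.24, adjusted p = 0.000484, 2.34-fold). The groups did not overlap for either, and their directions were opposite. Rb1 itself read 8.67, 8.36 and 8.4 and 8.8, 8.84, 9.03 and 8.94 (difference 0.43 ± 0.14, adjusted p = 0.0152, 1.35-fold), and it was not called without untreated replicate 2 or 3 (adjusted p = 0.0665 and 0.0557). The activator E2f1 rose from 3.55, 3.41 and 3.59 to 6.49, 6.62, 6.52 and 6.56 (difference 3.03 ± 0.26, adjusted p = 1.56e-07, at least 5.85-fold). The repressor E2f8 rose from 5.67, 5.81 and 4.96 to 9.1, 9.87, 10.09 and 9.64 (difference 4.2 ± 0.36, adjusted p = 2.13e-07, 18.3-fold). Treated arrays lay above untreated ones for each of these genes that rose. E2f5, another repressor, was not called (-0.21 ± 0.14, adjusted p = 0.206). Mybl1, a MYB factor that can join the MuvB core, rose from 2.87, 3.45 and 3.51 to 9.78, 9.23, 8.07 and 8.98 (difference 5.74 ± 0.52, adjusted p = 3.13e-07, at least 32.4-fold). Foxm1, which joins that complex before mitosis, rose from 2.89, 2.8 and 2.75 to 4.52, 4.84, 5.44 and 5.11 (difference 2.17 ± 0.26, adjusted p = 5.01e-06, at least 1.97-fold). Mybl1 was highest on treated replicate 1 and lowest on replicate 3, and Foxm1 the reverse.

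Myc, a growth-promoting factor that is induced soon after hepatectomy, went against most of the list. It read 8.02, 9.7 and 8.87 on the untreated and 7.06, 6.97, 5.94 and 6.45 on the treated arrays (difference -2.26 ± 0.35, adjusted p = 6.46e-05, 4.79-fold). Every treated array was below every untreated one, although the untreated arrays themselves spanned 8.02 to 9.70. The fall kept its call when any single array was left out, with differences from -2.68 to -1.84. The factor's partner Max was not called (0.29 ± 0.16, adjusted p = 0.115).

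Of 16 kept CDK subunits and CDK inhibitors, 14 rose and 0 fell, with a median difference of 2.11. Cdk1 read 2.55, 3.05 and 2.1 before and 10.16, 9.8, 10.39 and 10.12 after treatment (difference 7.55 ± 0.44, adjusted p = 3.79e-09, at least 69.6-fold). Cdk2, which acts at the start of DNA synthesis, rose from 5.98, 6.21 and 5.46 to 7.93, 7.95, 7.81 and 8.01 (difference 2.04 ± 0.24, adjusted p = 4.65e-06, 4.11-fold). Cdk4, the partner of cyclin D, rose from 6.28, 6.98 and 6.67 to 8.59, 8.91, 8.54 and 8.58 (difference 2.01 ± 0.16, adjusted p = 7.35e-08, 4.02-fold). All 3 kinases separated the groups without overlap. Inhibitors rose beside the kinases. Cdkn1a, a p53 target, reached 11.5, 10.26, 10.07 and 10.61 from values under 4, with treated replicate 1 highest, and Cdkn2c and Cdkn2d, inhibitors of Cdk4, rose by 3.31 ± 0.36 and 2.31 ± 0.22 (adjusted p = 1.93e-06 and adjusted p = 5.39e-07). Cdkn1b, the inhibitor of quiescent cells, read 8.52, 8.29 and 8.48 and 8.17, 8.26, 8.7 and 8.6 (difference 0.0 ± 0.2, adjusted p = 0.994, 1-fold), and its groups overlapped. Cyclin D1 (Ccnd1) rose from 8.3, 7.89 and 7.24 to 11.76, 11.89, 11.08 and 11.17 (difference 3.67 ± 0.27, adjusted p = 4.23e-08, 12.7-fold).

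In the list of ubiquitin ligases that time the cycle, 16 of 26 kept genes rose and 1, the substrate receptor Btrc, fell (median 0.67). After centring 15 rose and 5 fell, and after quantile normalization 15 and 1. Ube2c, the ubiquitin-conjugating enzyme of the anaphase-promoting complex, rose from 2.76, 3.29 and 3.04 to 10.69, 10.43, 11.1 and 10.88 (difference 7.75 ± 0.41, adjusted p = 1.91e-09, at least 110-fold). Cdc20 rose from 4.31, 4.41 and 3.77 to 11.15, 11.14, 12.07 and 11.69 (difference 7.35 ± 0.4, adjusted p = 2.27e-09, at least 155-fold), with treated replicates 3 and 4 above 1 and 2. Skp2, which marks CDK inhibitors for destruction, went from 4.33, 4.75 and 4.74 to 8.75, 8.94, 8.97 and 8.96 (difference 4.3 ± 0.18, adjusted p = 2.59e-10, 19.7-fold). All 3 genes separated the groups. The alternative activator Fzr1 (0.2 ± 0.23, adjusted p = 0.473) and the scaffolds Cul1 (-0.16 ± 0.1, adjusted p = 0.17) and Skp1 (-0.24 ± 0.11, adjusted p = 0.0771) were not called. Fbxo5, which restrains the complex until mitosis, rose from 3.16, 2.4 and 2.65 to 8.33, 8.32, 8.5 and 8.19 (difference 5.6 ± 0.48, adjusted p = 2.04e-07, at least 20.2-fold). Btrc fell by 0.59 ± 0.14 (adjusted p = 0.00172).

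Centrosome genes rose in 17 of 21 kept and fell in 0 (median 0.97). The duplication kinase Plk4 went from 2.71, 3.1 and 2.78 to 9.03, 9.32, 9.62 and 9.37 (difference 6.47 ± 0.32, adjusted p = 8.63e-10, at least 40.4-fold). Its partner in centriole assembly Stil went from 2.17, 0.98 and 1.85 to 6.22, 6.42, 6.48 and 6.41 (difference 4.71 ± 0.33, adjusted p = 2.74e-08, at least 5.22-fold). The abscission factor Cep55 rose from 2.82, 2.76 and 2.28 to 9.33, 9.35, 9.79 and 9.5 (difference 6.87 ± 0.4, adjusted p = 4.54e-09, at least 45.1-fold). Treated values of these 3 genes lay at least 3 log2 units above the highest untreated value. Cep152 (-0.23 ± 0.23, adjusted p = 0.403) and Cep63 (-0.31 ± 0.17, adjusted p = 0.119), which place Plk4 on the centriole, were not called.

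Chromatin assembly genes rose in 17 of 20 and fell in 0 (median 1.49). The helicase Hells, which helps to methylate DNA, went from 3.24, 3.56 and 3.38 to 11.09, 11.43, 10.87 and 11.26 (difference 7.77 ± 0.25, adjusted p = 2.86e-11, at least 143-fold). The centromeric histone Cenpa rose from 4.39, 5.3 and 4.3 to 8.7, 8.78, 9.7 and 9.23 (difference 4.44 ± 0.47, adjusted p = 1.56e-06, 21.7-fold), highest on treated replicate 3. Hmgb2, an architectural protein of proliferating cells, rose from 7.42, 7.16 and 7.02 to 9.6, 11.02, 10.99 and 10.85 (difference 3.42 ± 0.34, adjusted p = 8.56e-07, 10.7-fold), and treated replicate 1 stayed well under the other treated arrays. No treated array of these 3 genes overlapped the untreated ones. The histone variant gene H2az1 rose by 1.56 ± 0.16 (adjusted p = 1.06e-06), whereas its paralogue H2az2 (0.13 ± 0.29, adjusted p = 0.716) and the variant Macroh2a1 (0.24 ± 0.11, adjusted p = 0.0626) were not called.

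Repair genes rose unevenly. Of 22 kept members of alkylation, base excision and mismatch repair, 13 rose and 2 fell (median 0.54). After centring, and also after quantile normalization, 9 rose and 3 fell. DNA ligase Lig1 went from 2.07, 3.48 and 2.29 to 9.32, 8.9, 9.33 and 9.42 (difference 6.62 ± 0.31, adjusted p = 5.78e-10, at least 37.8-fold). The mismatch exonuclease Exo1 went from 1.51, 2.51 and 1.96 to 7.19, 7.97, 7.2 and 7.49 (difference 5.47 ± 0.39, adjusted p = 3.36e-08, at least 11-fold). Both were near background on the untreated arrays only. The mismatch sensor Msh6 rose from 4.76, 5.76 and 5.57 to 8.81, 9.01, 8.41 and 8.75 (difference 3.38 ± 0.27, adjusted p = 1.09e-07, 10.4-fold). The uracil glycosylase Ung rose from 6.64, 6.88 and 6.31 to 9.35, 10.12, 9.25 and 9.63 (difference 2.98 ± 0.21, adjusted p = 2.9e-08, 7.88-fold). The groups were apart for both. Mgmt, which takes alkyl groups directly off guanine and so acts on DEN adducts, read 5.19, 5.24 and 5.62 and 5.01, 4.91, 5.14 and 4.99 and was not called (difference -0.34 ± 0.16, adjusted p = 0.0735, 1.27-fold), though it was after centring (-0.56, adjusted p = 0.00703) and quantile normalization (-0.63, adjusted p = 0.00441). The alkyladenine glycosylase Mpg rose from 5.25, 5.55 and 5.15 to 6.55, 6.33, 6.26 and 6.35 (difference 1.06 ± 0.16, adjusted p = 5.06e-05, 2.08-fold), while the repair polymerase Polb (-0.07 ± 0.12, adjusted p = 0.651) and ligase Lig3 (0.07 ± 0.1, adjusted p = 0.53) were not called.

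Genes of ribosome assembly rose almost throughout. Of 27 kept, 25 rose and 0 fell (92.6% of the list, beside 35.9% of all kept genes), with a median difference of 0.98. The counts of rises and falls were 21 and 1 after centring and 22 and 0 after quantile normalization. Nolc1, a nucleolar coiled-body protein, went from 6.12, 6.37 and 5.53 to 9.38, 9.36, 8.99 and 9.09 (difference 3.2 ± 0.22, adjusted p = 2.7e-08, 9.18-fold). The box C/D core protein Nop58 rose from 6.77, 6.98 and 7.28 to 10.06, 10.06, 9.75 and 9.78 (difference 2.9 ± 0.2, adjusted p = 2.29e-08, 7.48-fold). Its partner Nop56 rose from 7.87, 7.57 and 7.58 to 10.23, 10.12, 9.65 and 10.03 (difference 2.33 ± 0.21, adjusted p = 2.77e-07, 5.03-fold). Groups did not overlap for these genes. Nucleolin (Ncl) rose by 1.38 ± 0.15 (adjusted p = 2.27e-06) and nucleophosmin (Npm1) by 1.17 ± 0.17 (adjusted p = 3.65e-05), and the catalytic subunit of RNA polymerase I, Polr1a, by 0.67 ± 0.16 (adjusted p = 0.00204). Treated replicate 3 was the lowest treated array for 25 of the 27 genes, by a median of -0.35 from the group mean. Many genes of this list are known Myc targets. Myc RNA fell, as given above, and whether Myc had a part in these rises was not tested.

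Splicing factors rose in 25 of 29 and fell in 1 (median 0.86), with 16 and 2 after centring and 23 and 0 after quantile normalization. The small nuclear ribonucleoprotein subunit Snrpf rose from 8.09, 7.95 and 7.78 to 10.04, 10.28, 9.74 and 9.94 (difference 2.06 ± 0.2, adjusted p = 5.69e-07, 4.16-fold). Snrpa1 rose from 10.11, 9.85 and 9.59 to 11.71, 11.82, 11.33 and 11.72 (difference 1.79 ± 0.2, adjusted p = 2.21e-06, 3.46-fold). Srsf3, a serine and arginine rich factor that hepatocytes need to mature, rose from 10.47, 10.36 and 10.45 to 11.73, 11.77, 11.67 and 11.78 (difference 1.31 ± 0.13, adjusted p = 8.33e-07, 2.48-fold). The treated values of Srsf3 lay within 0.11 of each other, and all 3 genes separated the groups. The gene that fell was the related Srsf5, from 10.81, 11.05 and 11.09 to 10.33, 10.51, 10.67 and 10.7 (difference -0.43 ± 0.18, adjusted p = 0.049, 1.35-fold). It was called only with all arrays or without untreated replicate 1, and 6 other single omissions gave differences of -0.48 to -0.35 (adjusted p = 0.0501 to 0.142). Polyamine genes were mixed, with 3 of 8 higher and 3 lower, and their median of 0.08 became -0.14 after centring and -0.01 after quantile normalization. Ornithine decarboxylase (Odc1) and spermidine synthase (Srm) rose by 0.89 ± 0.26 and 1.5 ± 0.22 (adjusted p = 0.00778 and adjusted p = 3.48e-05), and the decarboxylase activator Azin1 fell by 0.79 ± 0.11 (adjusted p = 1.47e-05).

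**Figure D3:**
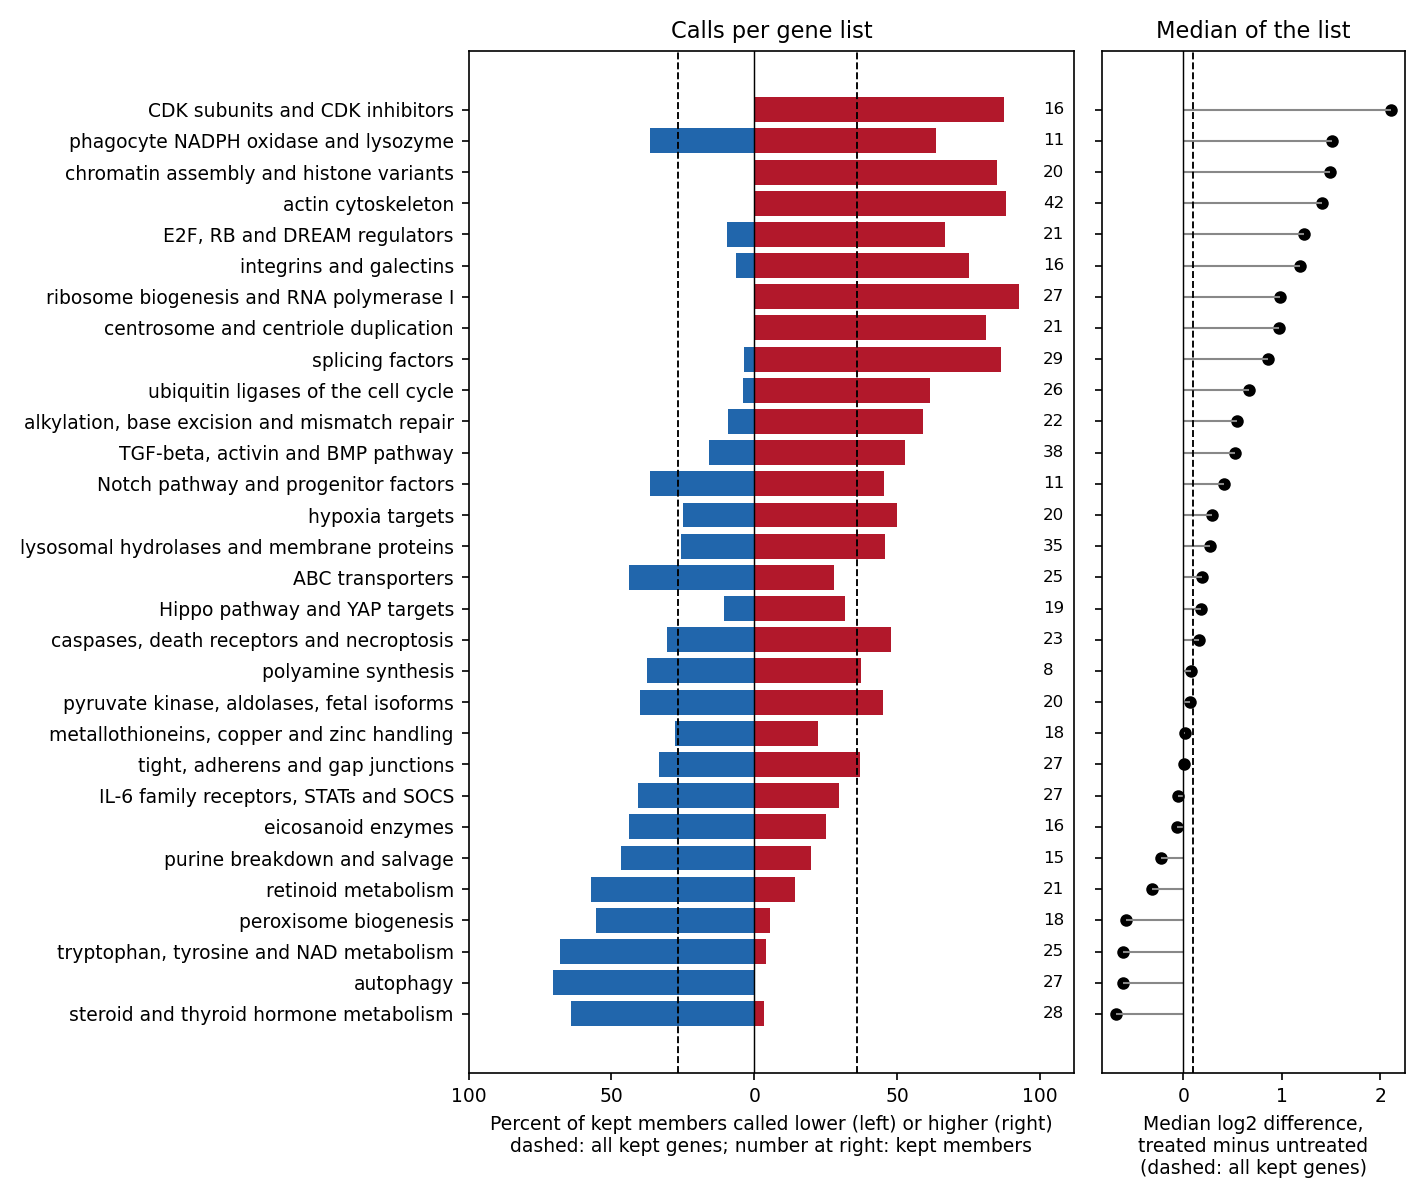
Left, percent of the kept members of 30 gene lists that fell (blue) or rose (red), with the number of kept members at the right. Right, the median log2 difference of each list, treated minus untreated. Dashed lines give the values over all 9483 kept genes, 26.7% lower, 35.9% higher and a median of 0.10. CDK, chromatin, actin, ribosome and splicing lists hold almost no falls, and the autophagy list holds no rise.

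Cytoskeletal genes rose widely. Of 42 kept genes of the actin cytoskeleton, 37 rose and 0 fell, with a median difference of 1.41. Anillin (Anln), which organises the contractile ring of dividing cells, went from 3.51, 3.76 and 3.65 to 10.24, 9.55, 10.31 and 10.21 (difference 6.44 ± 0.46, adjusted p = 3.36e-08, at least 67.6-fold), with treated replicate 2 below the rest. Transgelin 2 (Tagln2) rose from 5.52, 5.75 and 4.71 to 10.46, 9.45, 9.57 and 9.84 (difference 4.51 ± 0.27, adjusted p = 6.05e-09, 22.7-fold), highest on treated replicate 1. Both were far above the untreated arrays on every treated array. Coro1a, a coronin of blood cells, rose from 2.55, 2.91 and 3.5 to 6.9, 6.93, 7.1 and 7.33 (difference 4.08 ± 0.22, adjusted p = 2.17e-09, at least 8.37-fold). Tpm4, a nonmuscle tropomyosin, rose from 7.11, 7.72 and 7.79 to 11.09, 10.76, 10.79 and 10.77 (difference 3.31 ± 0.16, adjusted p = 7.1e-10, 9.91-fold). No treated array overlapped an untreated one for these. The abundant beta actin (Actb) rose by 0.57 ± 0.09 (adjusted p = 0.000111), and vimentin (Vim), the intermediate filament of mesenchymal cells, by 3.26 ± 0.2 (adjusted p = 7.41e-09). Radixin (Rdx), the membrane linker of the hepatocyte canaliculus, was not called (-0.05 ± 0.24, adjusted p = 0.863), while its relative ezrin (Ezr) rose by 3.3 ± 0.23 (adjusted p = 2.09e-08). The actin list holds genes that stellate cells and leukocytes express strongly, whose markers rose in the same arrays as given above, and their part in these rises was not tested.

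Receptors for matrix followed. Of 16 kept integrins and galectins, 12 rose and 1 fell (median 1.18). Galectin 1 (Lgals1), a sugar-binding protein of mesenchymal cells, went from 6.37, 6.97 and 7.17 to 11.79, 11.51, 11.89 and 11.78 (difference 4.91 ± 0.2, adjusted p = 1.2e-10, 30.1-fold). Galectin 3 (Lgals3) reached 12.06, 11.98, 11.16 and 11.3 from 2.63, 4.21 and 3.66. Both were apart from the untreated arrays by over 4 log2 units. Galectin 8 (Lgals8) fell from 10.78, 10.91 and 10.7 to 10.19, 10.26, 10.15 and 10.15 (difference -0.6 ± 0.14, adjusted p = 0.0014, 1.52-fold). Among integrins, the leukocyte chain Itgb2 rose from 3.11, 4.0 and 3.73 to 7.55, 7.12, 7.43 and 7.15 (difference 3.7 ± 0.24, adjusted p = 1.08e-08, at least 9.95-fold). The laminin receptor chain Itga6 rose from 4.35, 4.57 and 4.81 to 7.86, 8.04, 8.12 and 7.69 (difference 3.35 ± 0.16, adjusted p = 6.62e-10, 10.2-fold). No group overlapped for either integrin. Itgb1, the common beta chain, rose by 1.14 ± 0.16 (adjusted p = 2.59e-05), and Itga3 was not called (0.02 ± 0.2, adjusted p = 0.941).

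The TGF-beta, activin and BMP pathway changed unevenly, ligands and receptors included. Of 38 kept members 20 rose and 6 fell, with a median of 0.52. After centring 16 rose and 9 fell, and after quantile normalization 17 and 6. Among activin chains, Inhbb rose from 2.39, 2.82 and 2.7 to 6.51, 6.0, 6.6 and 6.87 (difference 3.86 ± 0.27, adjusted p = 3.02e-08, at least 5.64-fold), while the liver-specific chains Inhbc and Inhbe fell. Inhbc went from 7.94, 7.92 and 7.89 to 5.74, 6.67, 6.89 and 6.64 (difference -1.43 ± 0.34, adjusted p = 0.00224, 2.7-fold). Inhbe went from 8.65, 8.52 and 8.05 to 5.42, 6.69, 7.95 and 5.7 (difference -1.96 ± 0.62, adjusted p = 0.013, 3.9-fold). Treated replicate 3 of Inhbe came within 0.10 of the lowest untreated array. Follistatin (Fst), which neutralises activins, rose from 4.08, 4.33 and 4.0 to 8.12, 7.69, 7.46 and 8.01 (difference 3.68 ± 0.2, adjusted p = 1.8e-09, 12.8-fold). Follistatin-like Fstl1 rose from 4.02, 4.93 and 4.4 to 9.41, 9.04, 9.27 and 9.19 (difference 4.78 ± 0.26, adjusted p = 2.3e-09, 27.5-fold). Every treated array exceeded every untreated one for both follistatins.

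Among receptors, Tgfbr2 rose from 5.48, 7.07 and 7.51 to 9.87, 9.48, 9.67 and 9.66 (difference 2.99 ± 0.34, adjusted p = 3.26e-06, 7.92-fold), and untreated replicate 1 was again the lowest array, without which the rise was 5.21-fold. The activin receptor Acvr1b fell from 8.62, 8.55 and 7.98 to 6.88, 6.69, 7.14 and 6.9 (difference -1.48 ± 0.17, adjusted p = 2.95e-06, 2.8-fold), and Acvr2a fell by 0.77 ± 0.14 (adjusted p = 0.000249). Tgfbr2 and Acvr1b each separated the groups, in opposite directions. The signal carriers Smad1, Smad2, Smad3, Smad4 and Smad5 were not called, with differences between -0.27 and 0.42, although Smad1 and Smad4 were called lower after centring (-0.44 and -0.49, adjusted p = 0.00443 and 0.00687). Their transcriptional target Id1, an inhibitor of differentiation factors, rose from background at 3.68, 3.88 and 3.73 to 10.31, 10.41, 9.99 and 9.93 (difference 6.39 ± 0.23, adjusted p = 4.67e-11, at least 71.5-fold). Id3 and Id4 rose by 1.43 ± 0.27 and 1.16 ± 0.24 (adjusted p = 0.000363 and adjusted p = 0.000652), and Id2 by 0.78 ± 0.21 (adjusted p = 0.00434), with an overlap between groups. Id3 is also one of the Kupffer cell markers, and whether more such cells or more RNA per cell underlies its rise cannot be told apart in whole liver.

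Of Hippo pathway genes and YAP targets, several targets rose while most core components were not called. Of 19 kept, 6 rose and 2 fell, with a median of 0.18. After centring the median turned to -0.04, with 6 rises and 5 falls, and after quantile normalization it was 0.05. The largest rise counted in this list was that of Birc5, the chromosomal passenger subunit given above with the genes of chromosome division. The secreted YAP target Ccn2 rose from 4.69, 6.21 and 7.09 to 10.38, 9.47, 8.85 and 9.71 (difference 3.6 ± 0.47, adjusted p = 1.09e-05, 12.2-fold). Ccn1 rose from 5.83, 5.37 and 6.33 to 7.49, 7.02, 7.13 and 7.27 (difference 1.38 ± 0.24, adjusted p = 0.000139, 2.61-fold). The groups did not overlap, although Ccn2 spanned 4.69 to 7.09 on the untreated arrays and rose 7.73-fold without untreated replicate 1. Tead1, the DNA-binding partner of YAP, rose from 3.81, 3.97 and 3.84 to 6.48, 6.27, 6.34 and 6.09 (difference 2.42 ± 0.14, adjusted p = 4.68e-09, at least 4.9-fold). Yap1 (0.04 ± 0.12, adjusted p = 0.807), its homologue Wwtr1 (0.11 ± 0.16, adjusted p = 0.554) and the kinases Lats1 (-0.24 ± 0.11, adjusted p = 0.0869), Lats2 (0.07 ± 0.13, adjusted p = 0.667) and Stk4 (0.19 ± 0.11, adjusted p = 0.125) were not called. The mean of all kept probe sets was called higher for Yap1 (1.22, adjusted p = 7.85e-05) and Wwtr1 (0.81, adjusted p = 0.000118), so their calls depend on the probe set.

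In the Notch list 5 of 11 kept genes rose and 4 fell (median 0.41). The target Hes1 rose from 3.81, 3.87 and 4.52 to 6.49, 6.6, 7.58 and 6.56 (difference 2.74 ± 0.32, adjusted p = 3.83e-06, at least 6.2-fold), with treated replicate 3 above the others. The ligands Dll1 and Jag1 rose by 1.25 ± 0.14 and 0.84 ± 0.16 (adjusted p = 3.62e-06 and adjusted p = 0.000474). The progenitor factor Sox4 rose from 5.32, 6.3 and 4.54 to 7.15, 7.41, 7.82 and 7.64 (difference 2.12 ± 0.34, adjusted p = 9.03e-05, 4.34-fold), whereas the biliary factor Sox9 was not called (0.41 ± 0.22, adjusted p = 0.122). Untreated arrays of Sox4 spread over more than 1 log2 unit but stayed below the treated ones. The repressor Hes6 fell from 11.56, 11.24 and 11.35 to 10.08, 9.72, 9.84 and 10.16 (difference -1.44 ± 0.17, adjusted p = 4.42e-06, 2.71-fold), and Rbpj, the DNA-binding partner of Notch, by 0.49 ± 0.14 (adjusted p = 0.0063).

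Genes of cytokine signalling moved in both directions. In the list of IL-6 family receptors, STATs and SOCS, 8 of 27 rose and 11 fell, with a median of -0.06. Socs3, the feedback inhibitor of IL-6 signalling, fell from 10.21, 10.74 and 10.74 to 7.75, 8.31, 7.92 and 8.45 (difference -2.45 ± 0.22, adjusted p = 2.9e-07, 5.48-fold). Cish, which growth hormone induces, fell from 6.49, 7.13 and 5.84 to background at 3.37, 2.93, 3.19 and 3.01 (difference -3.36 ± 0.49, adjusted p = 3.53e-05, at least 5.6-fold). Neither gene had a treated array inside the untreated range. The growth hormone receptor Ghr fell from 13.4, 13.48 and 13.4 to 12.0, 12.11, 12.28 and 12.16 (difference -1.29 ± 0.16, adjusted p = 5.4e-06, 2.45-fold). Stat5b, which carries its signal, fell from 8.09, 8.33 and 8.24 to 6.79, 6.72, 7.16 and 7.0 (difference -1.3 ± 0.13, adjusted p = 7.4e-07, 2.47-fold).

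Within the IL-6 family, receptors went in opposite directions. The oncostatin receptor Osmr rose from 2.85, 3.62 and 3.29 to 6.12, 5.65, 5.65 and 5.91 (difference 2.58 ± 0.24, adjusted p = 4.56e-07, at least 3.56-fold). Il6ra fell from 9.28, 8.87 and 9.66 to 8.07, 8.24, 8.55 and 8.61 (difference -0.9 ± 0.24, adjusted p = 0.00411, 1.87-fold). Osmr and Il6ra did not overlap between groups. The shared signalling chain Il6st fell by 0.80 ± 0.16 (adjusted p = 0.000516), but another of its probe sets was called higher, so its direction is uncertain. Stat3, the carrier of IL-6 signals, read 9.23, 9.13 and 9.35 and 9.44, 9.26, 8.9 and 9.14 (difference -0.05 ± 0.18, adjusted p = 0.806, 1.04-fold) with overlap. Il1rap, a subunit of the IL-1 receptor, fell from 12.36, 12.34 and 12.39 to 9.99, 9.94, 10.36 and 10.04 (difference -2.28 ± 0.18, adjusted p = 9.37e-08, 4.85-fold). The macrophage receptor Csf1r rose from 8.33, 9.12 and 9.36 to 10.72, 10.14, 10.73 and 10.27 (difference 1.53 ± 0.22, adjusted p = 3.26e-05, 2.88-fold).

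Cell junction genes went both ways, in shares close to those of all kept genes. Of 27 kept, 10 rose and 9 fell (37.0% and 33.3%, beside 35.9% and 26.7% of all kept genes). The median of 0.01 was -0.21 after centring and -0.08 after quantile normalization. E-cadherin (Cdh1), of adherens junctions, rose from 10.48, 9.82 and 10.1 to 11.6, 11.98, 11.73 and 11.75 (difference 1.63 ± 0.19, adjusted p = 4.31e-06, 3.1-fold). Occludin (Ocln), of tight junctions, fell from 7.9, 7.82 and 7.99 to 5.55, 6.09, 6.65 and 6.56 (difference -1.69 ± 0.22, adjusted p = 1.05e-05, 3.23-fold). Claudin 2 (Cldn2) fell from 9.86, 10.17 and 9.92 to 9.01, 8.94, 9.09 and 8.69 (difference -1.05 ± 0.24, adjusted p = 0.0016, 2.07-fold). The falls of both tight junction proteins left them above background. Of the gap junction proteins, Gja1 rose from 7.04, 7.62 and 6.83 to 9.45, 9.06, 9.25 and 9.21 (difference 2.08 ± 0.17, adjusted p = 1.04e-07, 4.22-fold). Gjb1, the main connexin of hepatocytes, fell from 11.19, 11.18 and 11.29 to 10.21, 10.05, 10.58 and 10.41 (difference -0.91 ± 0.21, adjusted p = 0.00157, 1.88-fold). No group overlapped for these 5 genes.

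Genes of the phagocyte oxidase rose while other enzymes of oxygen chemistry fell. Of 11 kept genes in this list 7 rose and 4 fell (median 1.51). The oxidase subunit Cybb went from 4.01, 4.78 and 5.44 to 8.77, 8.43, 8.67 and 8.21 (difference 3.78 ± 0.28, adjusted p = 4.15e-08, 13.7-fold). Its membrane partner Cyba went from 2.81, 3.73 and 4.08 to 7.93, 7.26, 7.79 and 7.42 (difference 4.06 ± 0.29, adjusted p = 2.75e-08, at least 11.9-fold). The cytosolic subunit Ncf4 rose from 3.26, 2.93 and 3.78 to 5.54, 5.24, 5.32 and 4.45 (difference 1.81 ± 0.28, adjusted p = 5.13e-05, at least 2.2-fold). The groups were apart for all 3 subunits. In contrast Nox4, an oxidase that is active without those cytosolic subunits, fell from 9.67, 9.83 and 9.89 to 7.12, 7.58, 8.38 and 7.48 (difference -2.15 ± 0.3, adjusted p = 2.3e-05, 4.45-fold). Catalase (Cat) fell from 14.12, 13.82 and 13.82 to 12.88, 13.19, 13.37 and 13.18 (difference -0.76 ± 0.14, adjusted p = 0.000268, 1.7-fold), and the mitochondrial superoxide dismutase Sod2 by 0.58 ± 0.1 (adjusted p = 0.000121). The monocyte and macrophage markers given above moved with Cybb and Cyba on the same arrays, and their part was not tested.

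Among eicosanoid enzymes, 4 of 16 kept rose and 7 fell (median -0.07). Alox5ap, which presents arachidonic acid for leukotriene synthesis, rose from 3.05, 3.27 and 2.97 to 7.14, 6.51, 7.37 and 6.71 (difference 3.84 ± 0.28, adjusted p = 3.29e-08, at least 7.64-fold). Ptgr1, which inactivates leukotrienes and prostaglandins, rose from 5.87, 6.03 and 6.03 to 10.04, 10.04, 9.95 and 10.11 (difference 4.06 ± 0.18, adjusted p = 2.88e-10, 16.7-fold). The groups were apart for both, and treated values of Ptgr1 differed little among themselves. The hydroxylase Cyp4a12a fell from 12.7, 12.64 and 12.52 to 8.94, 10.11, 10.57 and 9.75 (difference -2.78 ± 0.65, adjusted p = 0.00192, 6.85-fold). The epoxide hydrolase Ephx2 fell from 13.38, 13.41 and 13.4 to 11.33, 12.16, 12.29 and 11.9 (difference -1.48 ± 0.23, adjusted p = 5.33e-05, 2.79-fold). Treated replicate 1 was the lowest treated array for both. The Cyp4a genes have near-identical copies, so a probe set may read several of them.

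Lysosomal genes rose in 16 and fell in 9 of 35 kept (median 0.27), with 14 and 12 after centring (median 0.04). The 16 and 9 were 45.7% and 25.7% of the list, beside 35.9% and 26.7% of all kept genes. Alpha-galactosidase (Gla) went from 2.89, 3.1 and 3.5 to 7.82, 7.59, 7.2 and 7.68 (difference 4.41 ± 0.23, adjusted p = 1.28e-09, at least 11.9-fold). Laptm5, a lysosomal membrane protein of leukocytes, rose from 6.56, 7.59 and 7.38 to 10.32, 10.56, 10.46 and 10.46 (difference 3.27 ± 0.19, adjusted p = 3.85e-09, 9.66-fold). Gpnmb, a glycoprotein of lipid-laden macrophages, rose from 2.94, 3.17 and 3.02 to 6.21, 5.12, 7.67 and 6.21 (difference 3.26 ± 0.53, adjusted p = 8.94e-05, at least 4.94-fold), highest on treated replicate 3. All treated arrays were above the untreated ones. The abundant membrane protein Lamp2 fell from 13.28, 13.14 and 13.14 to 12.46, 12.71, 12.99 and 12.74 (difference -0.46 ± 0.12, adjusted p = 0.00384, 1.38-fold). The cholesterol exporter Npc1 fell from 10.46, 10.46 and 10.17 to 9.15, 9.3, 9.4 and 9.19 (difference -1.1 ± 0.16, adjusted p = 3.62e-05, 2.15-fold).

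Autophagy genes fell or did not pass the threshold. Of 27 kept, 19 fell and 0 rose (70.4% of the list, beside 26.7% of all kept genes), and the median difference was -0.62. After centring 21 fell and after quantile normalization 20, with 0 rising in either. Gabarapl1, a ubiquitin-like protein of the autophagosome membrane, fell from 11.57, 11.69 and 11.65 to 9.2, 8.97, 9.34 and 9.1 (difference -2.48 ± 0.28, adjusted p = 3.13e-06, 5.59-fold). The starting kinase Ulk1 fell from 9.46, 9.54 and 9.73 to 8.44, 7.89, 8.22 and 8.14 (difference -1.41 ± 0.35, adjusted p = 0.00278, 2.65-fold). Atg14, which directs the lipid kinase to the site of assembly, fell from 6.96, 6.73 and 6.81 to 5.21, 4.79, 5.41 and 5.08 (difference -1.71 ± 0.23, adjusted p = 1.47e-05, 3.28-fold). Every treated array was below every untreated array for these genes. The conjugation enzyme Atg10 fell from 6.27, 5.54 and 5.53 to background at 3.02, 3.37, 3.46 and 3.36 (difference -2.48 ± 0.2, adjusted p = 9.19e-08, at least 3.43-fold). The most abundant member, Map1lc3b, fell from 12.18, 12.06 and 12.02 to 11.24, 11.46, 11.71 and 11.46 (difference -0.62 ± 0.15, adjusted p = 0.00236, 1.54-fold). Becn1 (0.16 ± 0.13, adjusted p = 0.29), Atg7 (-0.07 ± 0.25, adjusted p = 0.813) and Atg13 (-0.13 ± 0.18, adjusted p = 0.549) were not called.

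Genes of cell death went both ways, with 11 of 23 kept higher and 7 lower (median 0.16, or -0.07 after centring). The 11 and 7 were 47.8% and 30.4% of the list, beside 35.9% and 26.7% of all kept genes. Among sensors and executors, Apaf1, the core of the apoptosome, rose from 3.19, 4.49 and 4.9 to 7.67, 7.34, 7.46 and 7.19 (difference 3.22 ± 0.31, adjusted p = 5.3e-07, at least 7.74-fold). Casp2 rose from 3.54, 4.81 and 4.45 to 6.41, 6.52, 6.43 and 6.22 (difference 2.12 ± 0.25, adjusted p = 3.89e-06, at least 3.92-fold). The untreated arrays of both spread widely but stayed below the treated ones. The necroptosis effector Mlkl rose from 4.75, 5.06 and 4.99 to 8.01, 7.68, 7.05 and 7.8 (difference 2.7 ± 0.27, adjusted p = 1.05e-06, 6.51-fold). Tnfrsf12a, a TNF receptor family member that is not itself a death receptor, rose from 3.12, 3.42 and 4.46 to 9.22, 8.98, 7.91 and 8.05 (difference 4.87 ± 0.39, adjusted p = 9.63e-08, at least 20.9-fold), with treated replicates 1 and 2 above 3 and 4. The death receptor Fas was not called (-0.24 ± 0.23, adjusted p = 0.385). Neither Mlkl nor Tnfrsf12a overlapped between groups. The inhibitor Cflar, which blocks death receptor signals, fell from 9.88, 9.75 and 9.86 to 8.99, 8.69, 9.16 and 8.89 (difference -0.9 ± 0.16, adjusted p = 0.000172, 1.86-fold). Birc3, another inhibitor, fell from 6.89, 7.25 and 7.28 to 5.61, 5.7, 5.52 and 5.62 (difference -1.53 ± 0.26, adjusted p = 0.000124, 2.89-fold). Xiap was not called (0.05 ± 0.11, adjusted p = 0.737).

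The deepest falls measured above background were in enzymes and carriers of hepatocytes. Cyp2c37, a drug-metabolising P450, fell from 10.9, 10.84 and 10.8 to 5.28, 5.51, 4.5 and 6.01 (difference -5.52 ± 0.44, adjusted p = 8.36e-08, 45.8-fold), lowest on treated replicate 3. Near-identical Cyp2c genes may share its probes, and Cyp2c54 fell as well (-4.07 ± 0.38, adjusted p = 4.29e-07). Csad, which makes the taurine precursor hypotaurine, fell from 10.0, 10.08 and 10.32 to 4.54, 5.31, 5.19 and 4.66 (difference -5.21 ± 0.58, adjusted p = 2.67e-06, 37-fold). Cyp2c37 and Csad came near background on the treated arrays. The organic anion importer Slco1a1 fell from 12.08, 11.98 and 12.1 to 7.4, 6.34, 8.68 and 6.63 (difference -4.79 ± 0.67, adjusted p = 2.16e-05, 27.8-fold), with treated values spread over more than 2 log2 units. Inmt, an indole methyltransferase, fell from 12.65, 13.28 and 12.81 to 8.24, 7.28, 8.61 and 9.12 (difference -4.6 ± 0.58, adjusted p = 8.98e-06, 24.3-fold). Both were lowest on treated replicate 2. The carrier Slc22a7 fell from 10.91, 10.55 and 10.73 to 6.73, 5.79, 7.04 and 5.58 (difference -4.45 ± 0.56, adjusted p = 7.77e-06, 21.8-fold). Serpina6, the glucocorticoid-binding globulin, fell from 10.78, 10.96 and 10.89 to 6.11, 6.12, 7.3 and 7.2 (difference -4.2 ± 0.35, adjusted p = 1.45e-07, 18.3-fold). Mitochondrial carbonic anhydrase (Car5a) fell from 8.69, 9.03 and 9.24 to 4.95, 4.47, 5.32 and 5.18 (difference -4.0 ± 0.34, adjusted p = 1.6e-07, 16-fold). The lowest 12 were picked from called genes without overlap between groups, so their separation was a condition of the choice. Proline dehydrogenase (Prodh) fell by 3.96 ± 0.39 (adjusted p = 8.68e-07). The remaining genes of the lowest 12 were Abcc6, described with the transporters below, 9130409I23Rik (-4.68 ± 0.43, adjusted p = 3.5e-07) and Serpina4-ps1 (-4.02 ± 0.83, adjusted p = 0.000711).

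Other genes fell to background. Among genes under 4 on all 4 treated arrays, the 10 with the highest untreated means included Bmf, a cell death promoter of the Bcl2 family, which fell from 9.85, 8.92 and 8.84 to 3.33, 3.55, 3.64 and 3.29 (difference -5.75 ± 0.2, adjusted p = 3.96e-11, at least 36.9-fold). Macrod1, an enzyme that removes ADP-ribose from proteins, fell from 8.06, 8.16 and 8.44 to 3.52, 2.92, 3.38 and 2.94 (difference -5.03 ± 0.36, adjusted p = 3.51e-08, at least 18.6-fold). Both had been well above background on every untreated array. The cytosolic carbonic anhydrase Car1, a gene of red cell precursors too, fell from 6.73, 6.74 and 6.46 to 2.64, 2.51, 2.69 and 2.83 (difference -3.97 ± 0.21, adjusted p = 1.45e-09, at least 6.24-fold). The erythroid markers Alas2 and Klf1, given above, fell on the same arrays, and their part in the fall of Car1 was not tested. Fn3k, which repairs glycated proteins, fell from 7.3, 7.1 and 6.48 to 3.85, 3.57, 3.99 and 3.91 (difference -3.13 ± 0.3, adjusted p = 5.37e-07, at least 7.78-fold). In each the treated values lay together under 4. The long noncoding RNA gene Hectd2os fell at least 16.5-fold (adjusted p = 5.56e-08). Cish, described above, was one of the 10, and the others were the adhesion receptor Adgrv1 (at least 33.2-fold lower), the potassium channel Kcnk1 (at least 20.5-fold), 1700001C19Rik (at least 8.82-fold) and Nxpe2 (at least 5.82-fold).

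Metabolism of tryptophan, tyrosine and NAD fell in 17 of 25 kept genes and rose in 1 (68.0%, beside 26.7% of all kept genes), with a median of -0.61. In tryptophan breakdown, Tdo2, the first and committed step, fell from 13.91, 13.98 and 14.05 to 13.32, 13.51, 13.32 and 13.62 (difference -0.54 ± 0.11, adjusted p = 0.00072, 1.45-fold). The fall was steeper for some later steps. Afmid, the second step, fell from 9.83, 9.78 and 10.06 to 7.29, 6.86, 8.18 and 8.2 (difference -2.26 ± 0.33, adjusted p = 3.59e-05, 4.78-fold). Haao, which leads towards NAD, fell from 10.84, 10.93 and 10.85 to 8.09, 7.04, 8.61 and 7.93 (difference -2.95 ± 0.44, adjusted p = 3.75e-05, 7.75-fold). The intermediate enzyme Kmo was not called (-0.21 ± 0.16, adjusted p = 0.25). Salvage of nicotinamide, which supplies NAD without tryptophan, changed as well. Nampt, which salvages nicotinamide into NAD, fell from 9.68, 10.01 and 9.79 to 8.54, 8.06, 8.52 and 8.45 (difference -1.44 ± 0.17, adjusted p = 3.57e-06, 2.7-fold). The gene that rose was Nnmt, which methylates nicotinamide, from 6.11, 5.88 and 5.18 to 11.52, 9.62, 7.6 and 10.65 (difference 4.13 ± 0.98, adjusted p = 0.00198, 17.5-fold), and its treated arrays differed by almost 4 log2 units. The treated arrays of the enzymes that fell were below all untreated ones. In tyrosine breakdown Hpd fell from 13.36, 13.59 and 13.54 to 12.39, 11.95, 12.01 and 12.1 (difference -1.38 ± 0.23, adjusted p = 0.000114, 2.61-fold). Fah fell from 12.48, 12.47 and 12.46 to 11.29, 11.07, 11.67 and 11.37 (difference -1.12 ± 0.16, adjusted p = 2.06e-05, 2.17-fold), while the first enzyme, Tat, was not called.

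Retinoid genes fell in 12 of 21 and rose in 3 (median -0.32). The carotene-cleaving enzymes moved apart. Bco1 rose from 6.58, 6.18 and 6.13 to 9.21, 8.83, 8.24 and 8.48 (difference 2.39 ± 0.24, adjusted p = 1.02e-06, 5.26-fold). Bco2 fell from 4.62, 4.86 and 4.69 to 2.05, 2.23, 2.45 and 2.39 (difference -2.44 ± 0.16, adjusted p = 1.09e-08, at least 1.65-fold), under 4 on all treated arrays. The groups were apart for both enzymes. The retinol dehydrogenase Rdh16 fell from 8.66, 9.43 and 9.21 to 7.29, 6.93, 6.91 and 6.35 (difference -2.23 ± 0.26, adjusted p = 4.75e-06, 4.7-fold). Lrat, which stores retinol as an ester in stellate cells, rose by 1.35 ± 0.34 (adjusted p = 0.00286), together with the other stellate markers. The retinoic acid receptor Rarb rose from 3.65, 4.81 and 4.07 to 6.57, 5.43, 5.86 and 5.77 (difference 1.73 ± 0.29, adjusted p = 0.000125, at least 3.06-fold). The retinol carrier genes Rbp4 (-0.27 ± 0.08, adjusted p = 0.0118) and Ttr (-0.11 ± 0.08, adjusted p = 0.259) differed little, and Ttr was not called.

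Steroid and thyroid hormone genes fell in 18 of 28 and rose in 1 (median -0.69). The hydroxysteroid dehydrogenase Hsd3b5 fell from 13.11, 12.94 and 12.88 to 9.49, 10.42, 10.45 and 9.88 (difference -2.92 ± 0.57, adjusted p = 0.000428, 7.57-fold). Its relative Hsd3b2 fell from 9.82, 9.58 and 9.44 to 5.71, 6.59, 6.46 and 6.61 (difference -3.27 ± 0.23, adjusted p = 2.62e-08, 9.65-fold). Hsd11b1, which regenerates active glucocorticoid, fell from 12.87, 13.02 and 13.14 to 11.97, 11.75, 12.06 and 11.84 (difference -1.1 ± 0.12, adjusted p = 1.73e-06, 2.15-fold), and the glucocorticoid receptor Nr3c1 by 0.76 ± 0.14 (adjusted p = 0.000325). Treated arrays were below untreated ones in all 4. For thyroid hormone, the deiodinase Dio1 fell from 9.51, 8.93 and 9.5 to 2.45, 3.03, 4.32 and 2.48 (difference -6.25 ± 0.52, adjusted p = 1.47e-07, at least 37.7-fold), under 4 on all treated arrays but replicate 3. The thyroxine-binding globulin Serpina7 fell from 8.39, 8.43 and 8.26 to 6.32, 7.32, 6.14 and 5.08 (difference -2.14 ± 0.49, adjusted p = 0.00165, 4.42-fold). The thyroid-responsive gene Thrsp fell from 13.29, 13.39 and 13.49 to 12.31, 10.86, 10.78 and 10.98 (difference -2.16 ± 0.7, adjusted p = 0.0147, 4.45-fold). Thrsp was far higher on treated replicate 1 than on the other treated arrays. The receptor Thra was not called (0.14 ± 0.12, adjusted p = 0.3).

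Peroxisome biogenesis genes fell in 10 of 18 and rose in 1 (median -0.58). The import receptor for one class of matrix enzymes, Pex7, fell from 10.81, 11.03 and 11.2 to 9.74, 9.72, 10.19 and 9.93 (difference -1.12 ± 0.16, adjusted p = 2.55e-05, 2.17-fold). Pex5, the receptor for the larger class, fell from 8.99, 9.28 and 9.18 to 8.53, 8.54, 8.34 and 8.39 (difference -0.7 ± 0.14, adjusted p = 0.000662, 1.63-fold). Neither receptor overlapped between groups. The one that rose was the fatty acid transporter Abcd2, from 1.85, 3.2 and 3.56 to 5.9, 6.37, 7.45 and 6.39 (difference 3.66 ± 0.43, adjusted p = 3.93e-06, at least 5.77-fold). Its relative Abcd3 fell from 13.62, 13.8 and 13.67 to 12.9, 13.21, 13.39 and 13.09 (difference -0.55 ± 0.13, adjusted p = 0.00176, 1.46-fold). In purine metabolism 7 of 15 fell and 3 rose (median -0.23). The salvage enzymes Aprt and Hprt rose by 1.25 ± 0.23 and 0.6 ± 0.1 (adjusted p = 0.000311 and adjusted p = 0.000106), and Uox, which oxidises uric acid, fell by 0.37 ± 0.11 (adjusted p = 0.00909).

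Among ABC transporters, the bile salt pump fell while several multidrug transporters rose, and sterol exporters went both ways. Of 25 kept, 7 rose and 11 fell, and the median of 0.19 was -0.03 after centring and -0.06 after quantile normalization. The bile salt pump Abcb11 fell from 11.8, 11.76 and 11.58 to 10.27, 9.45, 10.44 and 9.77 (difference -1.73 ± 0.23, adjusted p = 1.6e-05, 3.32-fold). Abcg8, a sterol exporter, fell from 6.69, 7.0 and 6.93 to 4.99, 4.31, 3.89 and 4.24 (difference -2.52 ± 0.36, adjusted p = 3.11e-05, at least 5.62-fold), and its partner Abcg5 fell as well (-0.58 ± 0.18, adjusted p = 0.0101). Abcg1, which passes cholesterol to lipoproteins, rose (1.57 ± 0.18, adjusted p = 3.45e-06), and Abca1, which does so too and had the highest mean of the list, was not called (0.19 ± 0.09, adjusted p = 0.0914), although array weights gave it an adjusted p of 0.0195. Abcc6, whose loss causes ectopic calcification of soft tissue, fell from 8.97, 8.87 and 9.12 to 4.28, 4.12, 4.95 and 4.67 (difference -4.48 ± 0.25, adjusted p = 2.75e-09, 22.4-fold). No treated array of Abcb11, Abcg8 or Abcc6 reached an untreated one. The multidrug transporters Abcb1a and Abcb1b rose by 1.05 ± 0.22 and 1.39 ± 0.32 (adjusted p = 0.000798 and adjusted p = 0.00159), and Abcc1 rose from 2.14, 2.72 and 3.28 to 5.45, 5.06, 4.99 and 4.72 (difference 2.34 ± 0.26, adjusted p = 2.32e-06, at least 2.08-fold). The canalicular exporter Abcc2 was not called (0.24 ± 0.12, adjusted p = 0.0816).

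Metal handling genes changed little, with 4 of 18 higher and 5 lower (1 and 7 after centring) and a median of 0.02, or -0.20 after centring and -0.06 after quantile normalization. The metallothioneins Mt1 and Mt2 were not called (-0.06 ± 0.39, adjusted p = 0.903 and 0.08 ± 0.49, adjusted p = 0.899). Mt1 read 12.06, 12.45 and 12.63 on the untreated and 13.26, 11.76, 11.73 and 12.53 on the treated arrays, and treated replicate 1 was the highest of all 7 while replicates 2 and 3 were the lowest. Some transporters of other metals differed more. The manganese exporter Slc30a10 fell from 7.14, 7.22 and 7.13 to 5.18, 4.99, 5.33 and 5.26 (difference -1.97 ± 0.34, adjusted p = 0.000173, 3.92-fold). The copper pump Atp7a rose from 6.8, 6.69 and 6.76 to 7.94, 7.84, 7.81 and 7.99 (difference 1.15 ± 0.15, adjusted p = 1.25e-05, 2.21-fold).

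Hypoxia targets did not move as one, with 10 of 20 higher and 5 lower (7 and 6 after centring). Ldha and Ndrg1 rose by 1.03 ± 0.11 and 1.87 ± 0.35 (adjusted p = 1.28e-06 and adjusted p = 0.000344), while Pdk1, Bnip3 and Vegfa fell by 2.06 ± 0.18, 1.45 ± 0.17 and 1.10 ± 0.13 (adjusted p = 3e-07, adjusted p = 4.41e-06 and adjusted p = 3.5e-06). Hif1a was not called (0.26 ± 0.13, adjusted p = 0.0912). Some liver forms of metabolic enzymes fell and some forms of fetal or other tissues rose. Whether these changes took place in the same cells was not tested. Pklr, the liver pyruvate kinase, fell from 8.78, 8.96 and 8.8 to 5.95, 5.96, 6.33 and 5.73 (difference -2.85 ± 0.19, adjusted p = 1.9e-08, 7.23-fold). Pkm, the form of fetal and dividing tissues, rose from 2.68, 2.41 and 3.33 to 5.49, 4.85, 4.99 and 4.7 (difference 2.2 ± 0.29, adjusted p = 1.16e-05, at least 2.01-fold). Both kinases separated the groups without overlap. The liver glycogen phosphorylase Pygl fell by 0.71 ± 0.13 (adjusted p = 0.000315), and the brain form Pygb rose from 2.48, 3.86 and 3.79 to 7.17, 6.92, 6.92 and 6.73 (difference 3.56 ± 0.3, adjusted p = 1.41e-07, at least 7.65-fold). Creatine kinase Ckb rose from 2.55, 2.59 and 2.68 to 6.9, 6.3, 6.15 and 6.42 (difference 3.84 ± 0.28, adjusted p = 3.51e-08, at least 5.45-fold). In the whole list 9 of 20 rose and 8 fell, with a median of 0.07 that was -0.15 after centring and 0.00 after quantile normalization.

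**Figure D4:**
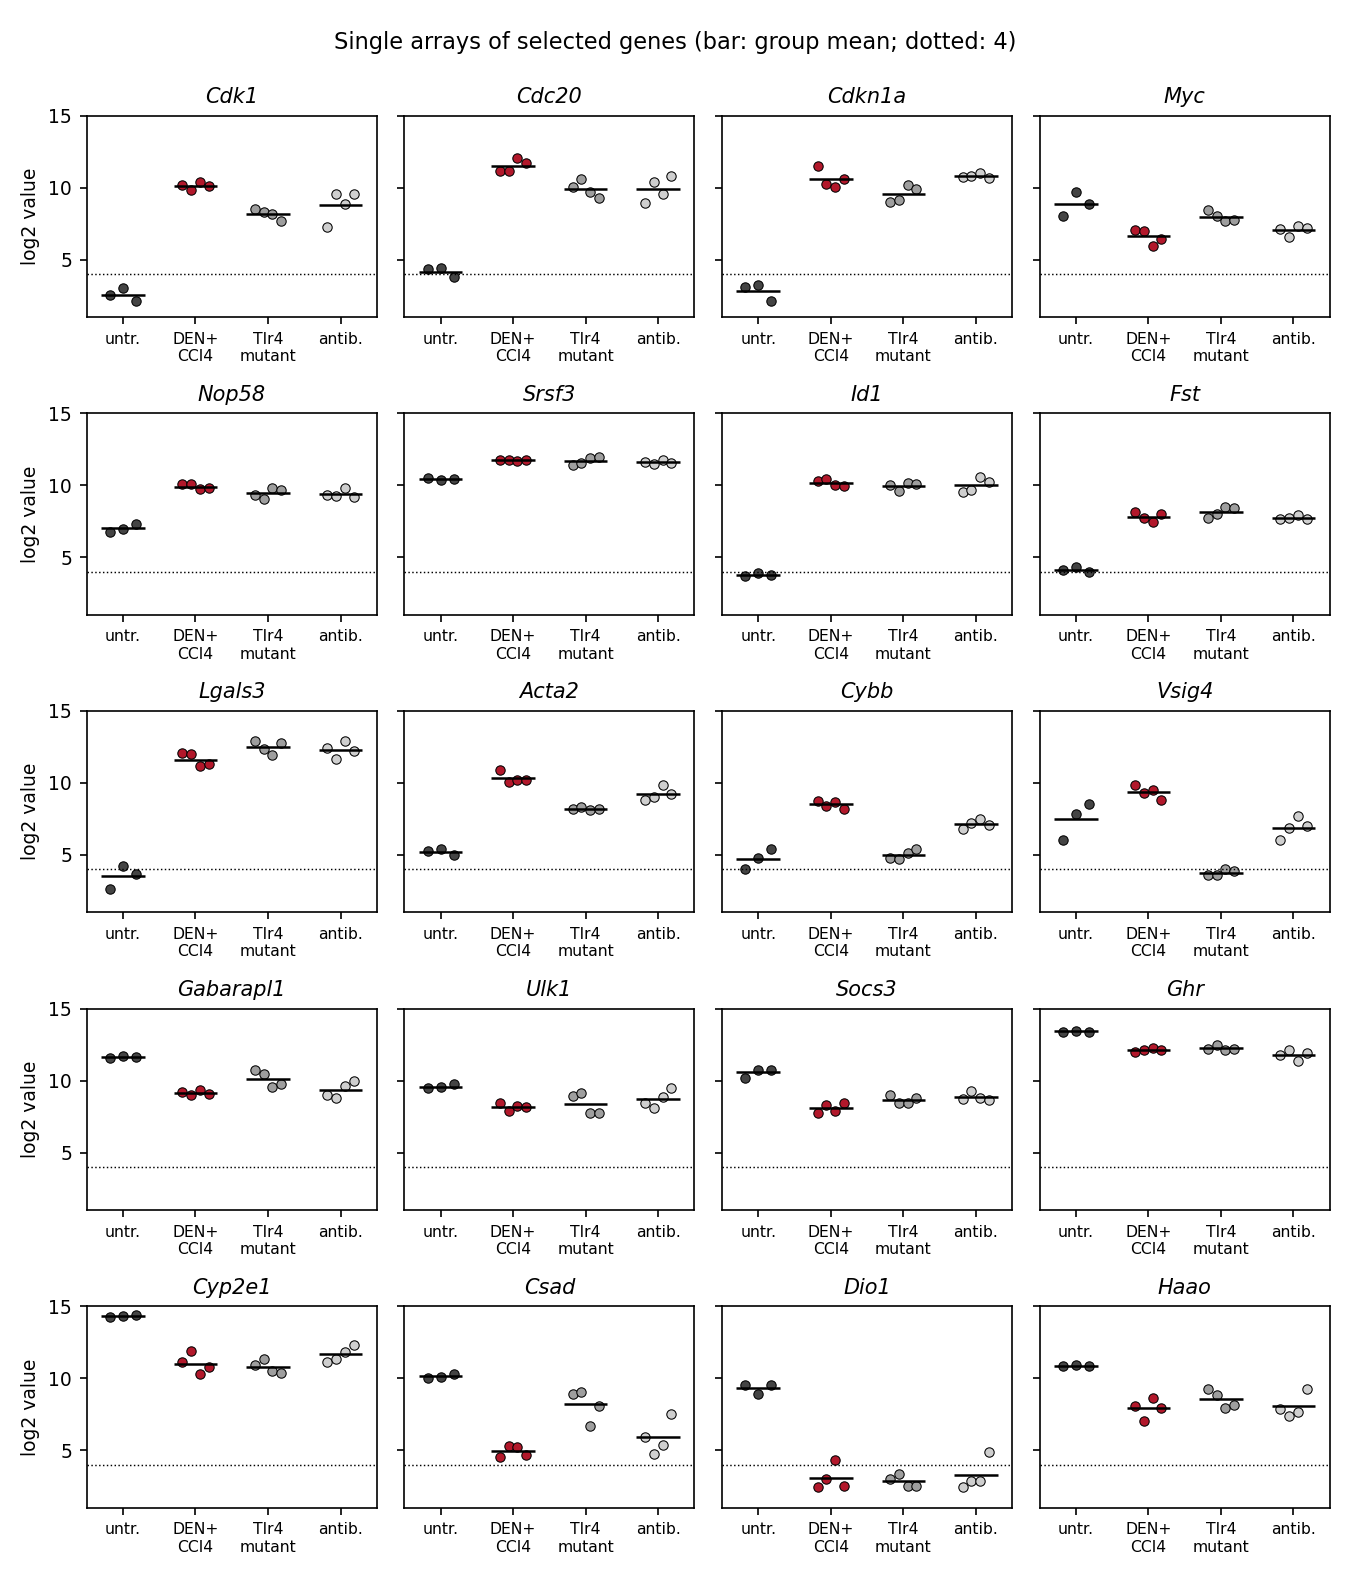
Log2 values of 20 genes on every array of the 4 groups: untreated wild type (3 arrays), wild type after DEN plus CCl4, Tlr4 mutant after the same treatment and wild type with antibiotics before it (4 arrays each). Bars are group means and the dotted line is 4. Rows hold cell cycle regulators, nucleolar, splicing and TGF-beta genes, macrophage and stellate genes, autophagy and cytokine signalling genes, and hepatocyte enzymes. Treated wild-type points stand apart from the untreated points in each panel, as for Socs3, at 10.21 to 10.74 against 7.75 to 8.45.

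The measured spread between arrays was slightly larger after treatment. The median SD of a gene was 0.15 over the 3 untreated and 0.18 over the 4 treated arrays. Among genes at 4 or above on all 7 arrays the treated SD was the larger for 61.1%. An SD from 3 arrays tends to come out lower than one from 4, so part of this difference may follow from group size. Treated replicate 1 was the highest treated array for 1530 of the 3408 genes that rose, and treated replicate 3 was the highest for 1206 of the 2530 that fell, with a median fall of -0.71 against -0.81 to -0.87 on the other treated arrays. The 6 called genes with the largest treated SD did not share one pattern. The acute-phase protein Saa3 read 9.01, 8.4, 12.33 and 10.32 on the treated arrays, against 7.04, 6.55 and 6.14 on the untreated ones (difference 3.44 ± 0.74, adjusted p = 0.000953, 10.8-fold), and was highest on replicate 3, without which the rise was 6.36-fold. On that replicate Nnmt, given above, was lowest, and without it Nnmt rose 29.3-fold. Major urinary protein Mup10 fell from 11.71, 11.21 and 11.47 to 6.04, 8.74, 9.57 and 7.91 (difference -3.4 ± 1.04, adjusted p = 0.0107, 10.6-fold), most on replicate 1, without which the fall was 6.64-fold, and its near-identical copies may share its probes. The nucleic acid sensor Zbp1 rose from 3.89, 4.08 and 4.3 to 4.52, 7.84, 5.2 and 7.14 (difference 2.09 ± 0.61, adjusted p = 0.00797, at least 4.14-fold). Cyp1a1, a target of the aryl hydrocarbon receptor, rose from 3.41, 3.47 and 3.6 to 6.26, 7.59, 4.53 and 7.33 (difference 2.94 ± 0.81, adjusted p = 0.00575, at least 5.39-fold). Both were highest on replicates 2 and 4, and Cyp1a1 rose 11.9-fold without replicate 3. Oestrogen sulfotransferase Sult1e1 read 2.61, 3.01 and 2.42 and 6.76, 4.15, 2.96 and 4.15 (difference 1.82 ± 0.69, adjusted p = 0.0319, at least 1.42-fold), its groups overlapped, and without treated replicate 1 the difference was 1.07 and not called (adjusted p = 0.0778). It also lost its call without untreated replicate 1 or 3 (adjusted p = 0.074 and 0.0879).

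**Figure D5:**
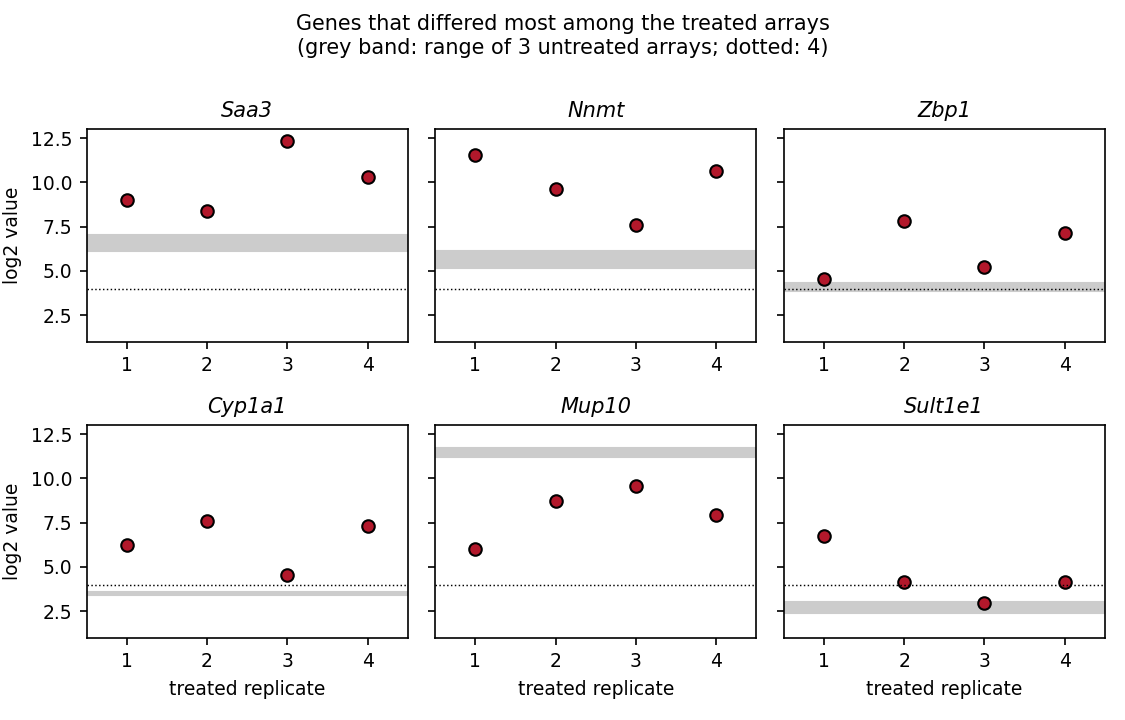
Log2 values on the 4 treated arrays (red points, by replicate) for the 6 called genes with the largest SD among them. The grey band spans the 3 untreated arrays and the dotted line is 4. Saa3 is highest on replicate 3, at 12.33, where Nnmt is lowest, at 7.6, and Zbp1 and Cyp1a1 are high on replicates 2 and 4.

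At the centre of the distribution, the 6 genes closest to a difference of 0 included Hfe, the haemochromatosis protein that senses iron, which read 9.85, 9.85 and 9.85 and 10.02, 9.88, 9.59 and 9.93 (0.0 ± 0.13, adjusted p = 0.995). The oxysterol receptor Nr1h3 read 7.25, 6.89 and 7.03 and 6.94, 7.35, 6.85 and 7.1 (0.0 ± 0.18, adjusted p = 0.996). Their treated values lay on both sides of the untreated ones. The others were Metap1d, Pip5k1a, Irf2bp1 and Trub1, none of them called. Their values are relative to the scaling, since centring moves each by about -0.22. Hnf4a, a master regulator of hepatocyte genes, was near this range as well. It read 11.59, 11.48 and 11.64 and 11.34, 11.24, 11.18 and 11.39 (difference -0.28 ± 0.1, adjusted p = 0.0207, 1.21-fold). It lost its call when untreated replicate 1 or 3 or treated replicate 3 was left out, with differences of -0.27, -0.25 and -0.24 (adjusted p = 0.058, 0.0782 and 0.0568).

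Several probe sets of a gene did not always tell the same story. Of 3849 genes with more than 1 kept probe set, 197 had probe sets called in opposite directions. Among 2413 called genes with several, 171 had another probe set called against the one used. The direction of a single gene among them is uncertain.

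For a few of these genes the levels in the other treated groups are set beside the wild type without a test, since all 3 treated groups share the untreated arrays as their reference. Cdk1 averaged 2.57 ± 0.47 on the untreated arrays (SD, n = 3), 10.12 ± 0.25 on treated wild type, 8.18 ± 0.36 on treated Tlr4 mutant and 8.79 ± 1.09 on antibiotic arrays (n = 4 each). Cybb averaged 4.74 ± 0.72, 8.52 ± 0.25, 5.01 ± 0.32 and 7.15 ± 0.29 in the same order. For Cybb the mutant arrays overlapped the untreated range, and the other treated groups did not. Gabarapl1 averaged 11.64 ± 0.06, 9.15 ± 0.16, 10.14 ± 0.55 and 9.35 ± 0.52, and Id1 3.76 ± 0.11, 10.16 ± 0.24, 9.97 ± 0.27 and 10.02 ± 0.5. Both genes were on the same side of the untreated arrays in all 3 treated groups.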

How the data were processed

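RNA of 15 liver samples was hybridised to Affymetrix whole-genome mouse arrays, 1 sample per array. The deposited log2 values were made by the authors with GCRMA, per the submitters' processing notes, whose version is not given in the sources used here. GCRMA subtracts a background modelled from probe sequence and normalizes between arrays, so low values are compressed and were read as background under 4. The value table held 45101 probe sets, of which 34958 had a single gene symbol in GEO's platform annotation, 932 had several and 9160 had none. Each kept gene is its probe set with the highest mean.

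The test was limma (version 3.58.1, R 4.3.3). Its model had the means of 4 groups over all 15 arrays, which left 11 residual degrees of freedom, and p-values received the Benjamini-Hochberg adjustment over 9483 genes. The fit was checked on simulated data. Counts and medians came from pandas (2.3.3, under Python 3.11.15) and the plots from matplotlib (3.10.9). The gene lists and members were chosen with earlier results of these data known. By rule, the genes named include the highest and lowest 12 differences among genes at 4 or above on all 7 arrays. These were called genes without overlap between groups. Also named are the 10 called genes highest on treated arrays among those under 4 on all untreated arrays, and the reverse. The 6 called genes with the largest treated SD and the 6 closest to 0 follow. The rest are members of the lists, not all of which are described. Alternatives were array centring, quantile normalization, a floor at 4, other filters, the mean of probe sets, a fit on the 7 arrays alone, another prior, array weights and leaving out each array. Slide and scan date were not analysed here.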

Additional observations from a re-analysis of the deposited data

Results flagged for a closer look

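For 18 of the 289 genes named, 1 of the 4 treated wild-type arrays stood apart from the rest by more than Dixon's critical value, measured as the gap to the nearest array over the whole range. For independent groups of normal values, chance alone gives about 1 in 20. The genes named share the same 4 arrays, and some were picked for their spread. The count therefore cannot be judged against that rate.

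Treated replicate 1 was the high array for the scavenger receptor Marco (8.52, others 7.31 to 7.46), the B cell adaptor Bank1 (6.22, others 3.86 to 4.21), the lipogenic gene Thrsp (12.31, others 10.78 to 10.98), Actb (14.28, others 14.09 to 14.1), Tpm4 (11.09, others 10.76 to 10.79) and Trub1 (7.83, others 7.37 to 7.42). It was the low array for Hmgb2 (9.6, others 10.85 to 11.02), Hsd3b2 (5.71, others 6.46 to 6.61), Id4 (3.53, others 4.32 to 4.44) and Skp2 (8.75, others 8.94 to 8.97).

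Treated replicate 2 was high for Cdk4 (8.91, others 8.54 to 8.59) and low for Abca1 (12.29, others 12.43 to 12.45), Anln (9.55, others 10.21 to 10.31), Sod2 (11.94, others 12.18 to 12.23) and Smad5 (6.41, others 6.61 to 6.64). Treated replicate 3 was high for Hes1 (7.58, others 6.49 to 6.6), Col1a2 (11.2, others 10.88 to 10.92) and Abcb1a (5.91, others 5.62 to 5.64). Of these genes, Smad5, Abca1 and Trub1 were not called. The others kept their call when any single array was left out.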

How the results depend on the processing

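Called genes numbered 5938, and 4759 to 7763 under the 9 alternatives that kept all arrays, the lowest with a filter at 6 (7393 genes tested) and the highest without a filter (18194 tested). Leaving out each of the 7 arrays gave 5335 to 5790 calls, and 2570 to 2770 with at least a 2-fold difference, against 2664. Of 240 named genes that were called, 236 kept call and direction in each of these omissions, and the exceptions were Hnf4a, Rb1, Srsf5 and Sult1e1. Hnf4a, at -0.28, was 0.09 with the mean of its probe sets, and the cause was not tested. Under centring 2 named genes lost and 12 gained a call, under quantile normalization 3 and 4, with the mean of probe sets 3 and 3, beside the 1 reversal of Hnf4a, and under array weights 0 and 12. Values near background limit the folds of genes that start or end there, which are lower bounds. No paired analysis was possible because the sample numbers in the titles run on from group to group, so that the groups share no number.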
